A study of Mus musculus with 6 samples.

Results

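The JAK kinases, STAT factors and SOCS inhibitor described here are 9 of the 26579 genes counted in mouse skin, and were chosen by name: the kinases *Jak1*, *Jak2*, *Jak3* and *Tyk2*, the transcription factors *Stat3*, *Stat5a*, *Stat5b* and *Stat6*, and the inhibitor *Socs3*. All 9 passed the filter on low counts and are among the 15102 genes tested. Dorsal neck skin was sequenced by RNA-Seq from 3 female YAP2-5SA-∆C transgenic mice and 3 female wild type littermates, all 33 days of age, when the skin phenotype of the transgenic mice was first visible from outside. The transgene is a mildly active YAP mutant expressed in basal keratinocytes, and the strain background is not given in the sources used here. Each library came from 1 mouse and from a whole punch biopsy, so epidermis, hair follicles, dermis, fat, muscle and immune cells were counted together. In such bulk samples, more cells of a type and more RNA per cell cannot be told apart.

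Cytokine receptors have no kinase activity of their own and rely on JAK kinases bound to their inner ends. When a cytokine brings the receptor chains together, the JAKs phosphorylate the receptor and each other, STAT proteins dock and are phosphorylated in turn, and STAT dimers enter the nucleus and switch on genes. Among these are the *Socs* genes, whose proteins bind JAKs and receptors and shut the signal off. In skin, *Stat3* is known for its role in keratinocyte growth and wound repair, and *Stat6* for relaying IL-4 and IL-13. These proteins are switched on by phosphorylation, so a transcript level is not a measure of pathway activity.

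All 9 genes had a higher mean level in YAP2-5SA-∆C than in wild type skin, by 1.10-fold (*Tyk2*) to 1.45-fold (*Stat5a*). In 6 of the 9 (*Jak1*, *Jak2*, *Stat3*, *Stat5a*, *Stat6* and *Socs3*) every YAP2-5SA-∆C library was above every wild type library. Such a separation was seen in 15.5% of all tested genes, and 47.6% of all tested genes had a log2 fold change above 0. None of the 9 passed edgeR's quasi-likelihood test at a false discovery rate (FDR, Benjamini-Hochberg over the 15102 genes) of 0.05, a threshold passed by 1.44% of the tested genes as higher and by 0.464% as lower. The FDR of the 6 separated genes lay between 0.0526 and 0.0936. Before adjustment, 6 of the 9 were higher at a p under 0.05 in the same test, against 13.3% of all tested genes, and 0 were lower.

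**Figure D1:**
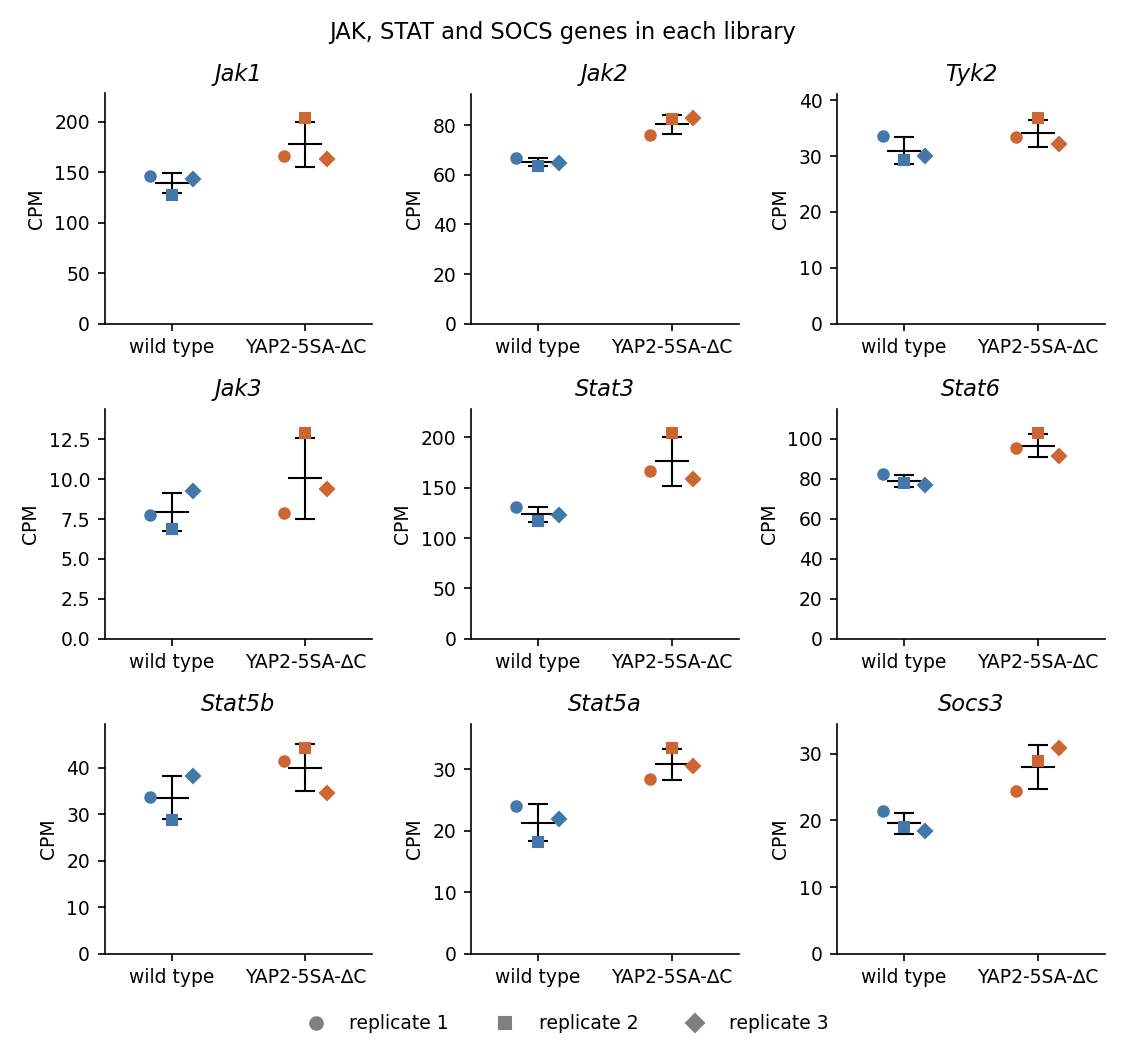
Level of each of the 9 genes in CPM (counts scaled to library size, vertical axes from 0) in the 3 wild type (blue) and 3 YAP2-5SA-∆C (orange) libraries. Points are libraries, horizontal bars are means and error bars are SD (n = 3). *Jak1*, *Jak2*, *Stat3*, *Stat6*, *Stat5a* and *Socs3* do not overlap between the genotypes, and *Jak3*, *Tyk2* and *Stat5b* do.

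Total counts were 11225705 to 19505036 per library. In all 6 libraries the mitochondrial ribosomal RNA *mt-Rnr2* took the largest share of the counts, 15.8% to 18.6%. Wild type replicate 3 was the shallowest library, and 1 gene without a symbol in the annotation, ENSMUSG00000045999, took 5.27% of its counts against 0.0634% to 0.288% elsewhere. YAP2-5SA-∆C replicate 2 stood apart in 6 hair shaft and inner root sheath keratins, which summed to 902 CPM there, to 4652 and 5406 CPM in the other YAP2-5SA-∆C libraries and to 8538 to 11108 CPM in wild type. Basal keratinocyte markers (*Krt5*, *Krt14* and 4 others) summed to 3318 to 4060 CPM in wild type mice and to 5592 to 7220 CPM in transgenic littermates, so markers of the labelled tissue were present. As a check of the labels, *Yap1* had 131 ± 9.47 CPM in the wild type libraries and 136 ± 7.32 CPM in those of YAP2-5SA-∆C mice (SD, n = 3), with a quasi-likelihood FDR of 0.635 (edgeR), and it is not known whether transgene reads were counted on it.

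Short stretches before RefSeq start sites of *Stat3*, *Stat6* and *Socs3* are shown because these 3 of the 9 genes held the letters searched for. The first pattern, TTCNNNGAA, is the core that STAT dimers are known to bind. The other, GGAATG, which reads CATTCC on the other strand, is the core bound by the TEAD factors through which YAP acts. Both strands of the 250 bases before each RefSeq start site were searched (GRCm38.p6, 11 windows for the 9 genes), and matches to the 2 patterns did not overlap in these windows. Capitals mark the match, and each stretch of 30 bases reads 5′ to 3′ along the gene.

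Socs3, chr11:117969501-117969530, minus strand: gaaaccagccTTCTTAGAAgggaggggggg

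Stat3, chr11:100939761-100939790, minus strand: tcagcaggaCATTCCgctaatgtctcctcc

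Stat3, chr11:100939541-100939570, minus strand: cagggtggcctagccagctggcCATTCCtt

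Stat6, chr10:127642773-127642802, plus strand: tccgaggagtggGGAATGgatcagtgctaa

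The STAT letters in *Socs3*, the inhibitor whose gene STAT3 is known to induce, began 154 bases before its RefSeq start site. The GENCODE M21 gene model, whose span is given below with its values, starts further out, so this stretch lies within that span and outside its exons. The STAT letters were found in 1 of the 9 genes, against 8.13% of the 27018 genes with windows and 7.02% of the 32841 windows. The TEAD letters began 241 and 8 bases before the start site of *Stat3* and 201 bases before that of *Stat6*. The TEAD letters were found in 2 of the 9 genes, against 14.4% of the genes and 12.6% of the windows. No annotated exon of GENCODE M21 touches the 4 stretches. A match is a description of letters and not a bound site, and no binding was measured in these samples.

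*Jak1* (chromosome 4, 101152367 to 101265282, minus strand of GRCm38) encodes the kinase shared by the receptors of the IL-6 family, the interferons and the common gamma chain. Its level was 147, 128 and 143 CPM in wild type replicates 1 to 3 and 166, 204 and 163 CPM in YAP2-5SA-∆C replicates 1 to 3. All 3 YAP2-5SA-∆C libraries were above the wild type libraries, and replicate 2 was the highest of them. The means were 139 ± 10.2 and 177 ± 22.6 CPM (SD, n = 3), a log2 fold change of 0.35 ± 0.10 (SE) and a quasi-likelihood FDR of 0.0936 (edgeR). Without YAP2-5SA-∆C replicate 2 the log2 fold change of *Jak1* was 0.26 and its FDR 0.0912 in that test. Dropping wild type replicate 2 gave *Jak1* 0.29 and 0.260, its highest FDR with 1 library left out.

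*Jak2* (chromosome 19, 29251828 to 29313080, plus strand), the kinase of hormone-type receptors such as those of growth hormone, prolactin and erythropoietin and of the interferon gamma receptor, had the tightest groups. It had 66.6, 63.4 and 64.9 CPM in the wild type libraries and 75.9, 82.3 and 82.8 CPM in those of YAP2-5SA-∆C mice. The groups did not overlap. The means were 65.0 ± 1.63 and 80.3 ± 3.86 CPM (SD, n = 3), with a log2 fold change of 0.31 ± 0.06 (SE) and a quasi-likelihood FDR of 0.0526 (edgeR), the lowest of the 9 genes. Without YAP2-5SA-∆C replicate 2 the same test gave *Jak2* a log2 fold change of 0.30 and an FDR of 0.0472. Dropping wild type replicate 2 gave *Jak2* 0.29 and 0.190, its highest FDR with 1 library left out.

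*Jak3* (chromosome 8, 71676296 to 71690575, plus strand), the kinase of the common gamma chain, which is mostly expressed in blood cells, was the lowest of the 9 genes. It had 7.75, 6.86 and 9.23 CPM in the wild type libraries and 7.90, 12.9 and 9.36 CPM in those of YAP2-5SA-∆C mice. Only YAP2-5SA-∆C replicate 2 was clearly above the wild type range, and the groups overlapped. The log2 fold change was 0.34 ± 0.20 (SE) with a quasi-likelihood FDR of 0.321 (edgeR), and the log2 fold change was 0.15 without that library. Exons of *Insl3* on the same strand overlap 7.55% of the exon bases of *Jak3*, but *Insl3* itself had at most 2 counts in a library.

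*Tyk2* (chromosome 9, 21104068 to 21131243, minus strand), a kinase of the type I interferon, IL-12 and IL-23 receptors, differed least. It had 33.6, 29.2 and 30.0 CPM in the wild type libraries and 33.4, 36.8 and 32.1 CPM in those of YAP2-5SA-∆C mice. Wild type replicate 1 was above 2 of the 3 YAP2-5SA-∆C libraries, so the groups overlapped. The log2 fold change was 0.14 ± 0.09 (SE), with a quasi-likelihood FDR of 0.341 (edgeR), and was 0.10 without YAP2-5SA-∆C replicate 2. Leaving out wild type replicate 1 gave *Tyk2* 0.21.

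*Stat3* (chromosome 11, 100885098 to 100939540, minus strand), the factor activated by IL-6 family cytokines, had the largest absolute difference of the 4 STAT genes in CPM. It had 131, 117 and 123 CPM in the wild type libraries and 166, 204 and 159 CPM in those of YAP2-5SA-∆C mice. The lowest YAP2-5SA-∆C library was above the highest wild type library, and replicate 2 was again the highest. The means were 123 ± 7.07 and 176 ± 24.4 CPM (SD, n = 3), with a log2 fold change of 0.51 ± 0.10 (SE) and a quasi-likelihood FDR of 0.0541 (edgeR). Without YAP2-5SA-∆C replicate 2, the log2 fold change of *Stat3* was smaller, 0.41, while its FDR in that test was 0.0207. Dropping wild type replicate 2 gave *Stat3* 0.48 and 0.193, its highest FDR with 1 library left out.

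*Stat5a* (chromosome 11, 100859351 to 100885169, plus strand) lies tail to tail with *Stat3* and encodes a factor activated by prolactin, growth hormone and IL-2 family cytokines. It had 24.0, 18.1 and 21.9 CPM in the wild type libraries and 28.5, 33.4 and 30.5 CPM in those of YAP2-5SA-∆C mice. The groups did not overlap. The means were 21.3 ± 2.97 and 30.8 ± 2.48 CPM (SD, n = 3), with a log2 fold change of 0.53 ± 0.12 (SE), the highest of the 9 genes, with a quasi-likelihood FDR of 0.0616 (edgeR). With YAP2-5SA-∆C replicate 2 left out, these values of *Stat5a* were 0.49 and 0.0701. With wild type replicate 2 left out they were 0.43 and 0.190, its highest FDR with 1 library left out. The exons of *Stat5a* and *Stat3* share 72 bases on opposite strands, which is 1.01% of the exon bases of *Stat5a*, and the strand setting of the counting is not stated.

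*Stat5b* (chromosome 11, 100780731 to 100850724, minus strand) is the close paralog of *Stat5a*. It had 33.8, 28.8 and 38.2 CPM in the wild type libraries and 41.4, 44.2 and 34.6 CPM in those of YAP2-5SA-∆C mice. Wild type replicate 3 was above YAP2-5SA-∆C replicate 3, so the groups overlapped. The log2 fold change was 0.26 ± 0.13 (SE), with a quasi-likelihood FDR of 0.261 (edgeR), and was 0.20 without YAP2-5SA-∆C replicate 2. Leaving out wild type replicate 2 gave *Stat5b* 0.16 in place of 0.26. The log2 ratio of *Stat5a* to *Stat5b* within a library averaged -0.66 ± 0.16 for wild type and -0.37 ± 0.18 for YAP2-5SA-∆C mice (SD, n = 3), a difference of 0.28 (two-sided exact permutation test, p = 0.2, where 0.1 is the smallest p that 3 against 3 mice allow). With YAP2-5SA-∆C replicate 3 left out this difference was 0.18. Reads that fit both paralogs equally were not counted for either gene, so the split between them is uncertain.

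*Stat6* (chromosome 10, 127642986 to 127660957, plus strand), the factor of IL-4 and IL-13, had 82.2, 77.8 and 76.8 CPM in the wild type libraries and 95.3, 103 and 91.4 CPM in those of YAP2-5SA-∆C mice. The groups did not overlap and were tight. The means were 78.9 ± 2.88 and 96.5 ± 5.81 CPM (SD, n = 3), with a log2 fold change of 0.29 ± 0.07 (SE) and a quasi-likelihood FDR of 0.0619 (edgeR). With YAP2-5SA-∆C replicate 2 left out, these values of *Stat6* were 0.26 and 0.0575. With wild type replicate 2 left out they were 0.28 and 0.202, its highest FDR with 1 library left out.

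*Socs3* (chromosome 11, 117966079 to 117970047, minus strand), the inhibitor of signalling through the IL-6 receptor chain gp130, had 21.3, 19.0 and 18.4 CPM in the wild type libraries and 24.4, 28.9 and 30.8 CPM in those of YAP2-5SA-∆C mice. All YAP2-5SA-∆C libraries were higher than all wild type libraries, and here replicate 3 was the highest. The means were 19.6 ± 1.55 and 28.0 ± 3.33 CPM (SD, n = 3), with a log2 fold change of 0.52 ± 0.11 (SE) and a quasi-likelihood FDR of 0.0576 (edgeR). With YAP2-5SA-∆C replicate 2 left out, these values of *Socs3* were 0.51 and 0.0642. With YAP2-5SA-∆C replicate 3 left out they were 0.45 and 0.106. Dropping wild type replicate 2 gave *Socs3* 0.50 and 0.197, its highest FDR with 1 library left out. The log2 ratio of *Socs3* to *Stat3* averaged -2.66 ± 0.08 for wild type and -2.65 ± 0.25 for YAP2-5SA-∆C mice (SD, n = 3), a difference of 0.01 (two-sided exact permutation test, p = 1.0), with YAP2-5SA-∆C replicate 3 at -2.36 and the other YAP2-5SA-∆C libraries at -2.77 and -2.82. With YAP2-5SA-∆C replicate 3 left out the difference was -0.14, and with replicate 2 left out 0.09, so its sign rests on single libraries.

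**Figure D2:**
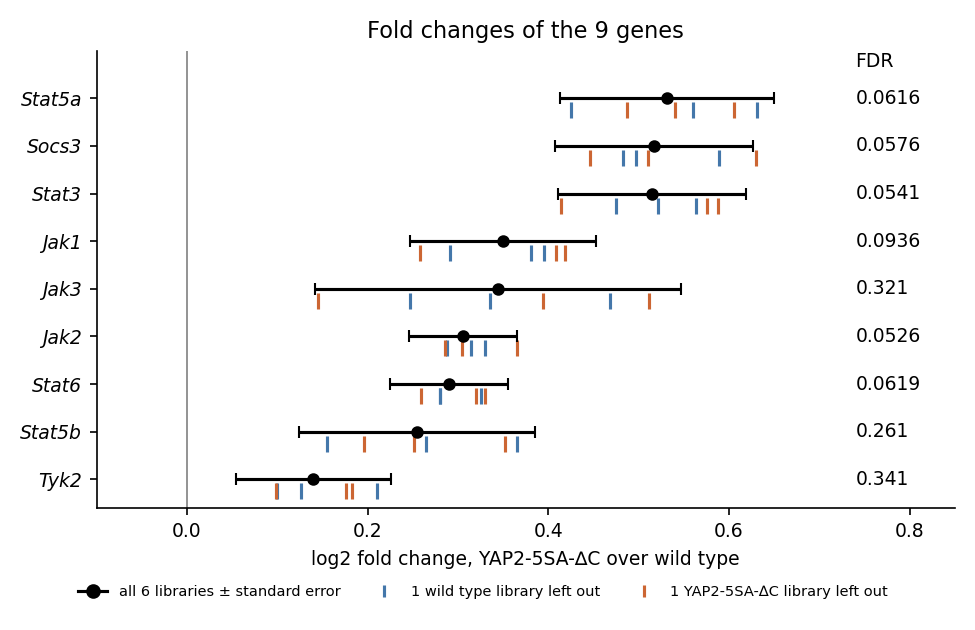
Log2 fold change of YAP2-5SA-∆C over wild type skin (horizontal axis) for each gene, with its standard error and FDR from the edgeR quasi-likelihood test. Ticks under each point are the fits that leave out 1 library, and all lie above 0, from 0.10 for *Tyk2* to 0.63 for *Stat5a* and *Socs3*.

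Whether these genes are called depended on the test. The likelihood-ratio test of edgeR, which the study used beside voom, called 3 of the 9 genes higher, against 5.52% of all tested genes. These were *Stat3* (FDR 0.0138), *Stat5a* (0.0193) and *Socs3* (0.0218). The DESeq2 Wald test called 6 of the 9, the same 6 whose groups did not overlap, from an adjusted p of 0.000357 for *Stat3* to 0.0225 for *Jak1*, against 6.34% of all tested genes. Voom, which the study describes as the more conservative, called 0 of the 9, against 1.23% of all tested genes. Its adjusted p was 0.0568 for *Jak2* and 0.0582 for *Stat3*. *Jak3*, *Tyk2* and *Stat5b* were called by none of these 4 tests.

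**Figure D3:**
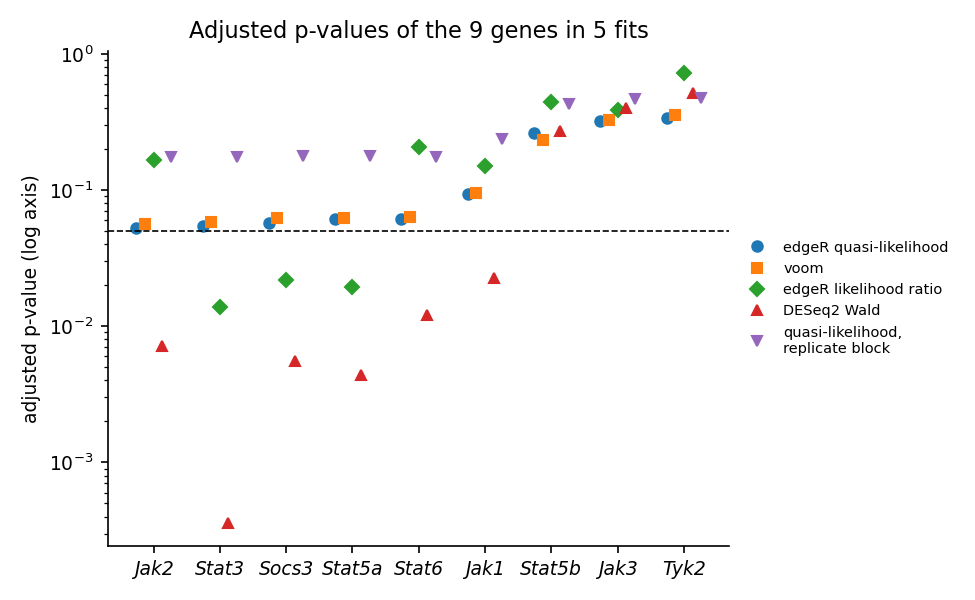
Adjusted p-value (log axis) of each gene in 5 fits, with the dashed line at 0.05. *Jak2*, *Stat3*, *Socs3*, *Stat5a* and *Stat6* lie just above the line in the quasi-likelihood test and voom, and all of these and *Jak1* lie under it in DESeq2.

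Levels of different genes were compared per length, as CPM per kilobase of exon averaged over the 6 libraries. *Jak1* was the highest at 21.9, followed by *Stat6* (19.9), *Stat3* (15.7), *Jak2* (14.4), *Socs3* (8.24), *Stat5b* (6.65), *Tyk2* (4.74), *Stat5a* (3.65) and *Jak3* (1.68). *Jak1* was above *Stat6* in 5 of 6 libraries, and the ranges of these neighbours overlapped in both genotypes, so their order is not settled. *Stat3* was above *Jak2* in 5 of 6 libraries and *Socs3* above *Stat5b* in 5 of 6, with overlapping ranges in wild type skin. *Stat6* and *Stat3*, and *Tyk2* and *Stat5a*, kept their order in all 6 libraries but had overlapping ranges in YAP2-5SA-∆C skin. The other neighbours did not overlap in either genotype.

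**Figure D4:**
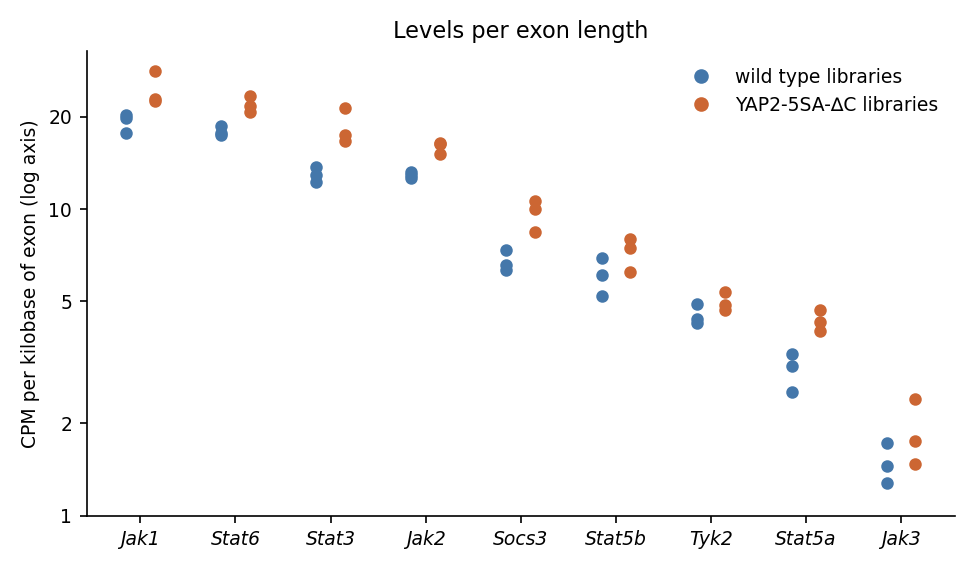
Level per exon length (CPM per kilobase of exon, log axis) of the 9 genes in each wild type (blue) and YAP2-5SA-∆C (orange) library, ordered by their mean. *Jak1*, *Stat6*, *Stat3* and *Jak2* form the upper end, and *Jak3* is the lowest at a mean of 1.68.

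The make-up of each family was taken per exon length. *Stat3* made up 32.0% to 32.8% of the 4 STAT genes in the wild type libraries and 34.5% to 37.3% in those of YAP2-5SA-∆C mice, without overlap. The share of *Stat6* was 43.3% to 46.9% in the wild type libraries and 40.7% to 43.3% in those of YAP2-5SA-∆C mice, with overlap. *Tyk2* made up 11.2% to 12.3% of the 4 JAK genes in the wild type libraries and 10.2% to 10.96% in those of YAP2-5SA-∆C mice, without overlap. The share of *Jak1* was 49.3% to 51.1% and 49.7% to 53.9%, with overlap. Those of *Jak2*, *Jak3*, *Stat5a* and *Stat5b* overlapped as well. Shares within a family depend on each other, since a rise in 1 lowers the rest. With 3 mice in each group, an exact test of such a share could not fall under 0.1, and none was run.

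YAP2-5SA-∆C replicate 2 was the highest library for 7 of the 9 genes and replicate 3 for the other two, and wild type replicate 2 was the lowest for 7. The 36 pairs had Pearson correlations of log2 CPM from 0.45 (*Stat5b* and *Socs3*) to 0.987 (*Stat3* and *Stat6*), with a median of 0.852. These 6 points share the difference between the genotypes and the library that stands apart, so the values are given as a description. Searched over all tested genes, the patterns most like *Stat3* were those of *Lypd3* (r = 0.999) and *Cfap57*, and those most like *Jak1* were *Clca2* (r = 0.999) and *Acap3*. *Socs3* was most like *Clcf1* (r = 0.999), which encodes a cytokine of the IL-6 family, and *Efhd2*. *Stat5a* was most like the MHC class II gene *H2-Eb1* and *Papss2*, *Stat6* like *Acsbg1* and *Sdr16c5*, *Jak2* like *Tnfrsf9* and *Paqr7*, *Jak3* like *Igf1* and *Kdm4b*, *Tyk2* like *Gldn* and *Bcl2*, and *Stat5b* like *Eif4g3* and *Batf*. Each is the best of all tested genes over 6 libraries, with r from 0.988 to 0.999.

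Around these 9 genes, 126 other genes of the pathway were listed by role, of which 120 were counted and 86 tested. By quasi-likelihood in edgeR, 6 of the 86 rose and 0 fell, against 1.44% and 0.464% of all tested genes. The median log2 fold change was 0.31, against -0.01 over all tested genes. At an unadjusted p under 0.05 in that test, 40 of the 86 were higher and 5 lower, against 13.3% and 13% of all tested genes. The likelihood-ratio test, voom and DESeq2 called none of the 86 lower. Of all 15102 tested genes, these tests called 735, 63 and 625 lower. In 40 of the 86 the YAP2-5SA-∆C libraries were all above the wild type libraries, against 15.5% of all tested genes, and in 8 all below, against 18.2%. The likelihood-ratio test called 22 of the 86 higher, voom 6 and DESeq2 27, where 5.52%, 1.23% and 6.34% of all tested genes were called. The quasi-likelihood calls depended on single libraries. Leaving out wild type replicate 2, wild type replicate 3 or the third YAP2-5SA-∆C library gave 0 calls among all genes, so also 0 pathway genes. With the first wild type library left out 142 genes were called in all and 0 of the pathway, with the first YAP2-5SA-∆C library left out 86 and 3, and with YAP2-5SA-∆C replicate 2 left out 816 and 14.

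Of the 5 lists, the receptors had the median furthest from that of all genes. Of 41 receptor genes 34 were tested, 31 had a log2 fold change above 0, against 47.6% of all tested genes, and in 22 the genotypes separated with YAP2-5SA-∆C skin above, against 15.5%. The median log2 fold change of the receptors was 0.52, and 2 rose in the quasi-likelihood test, against 1.44% of all tested genes. Of the 34 receptors voom called 2 (1.23% of all tested genes), the likelihood-ratio test 12 (5.52%) and DESeq2 16 (6.34%). *Csf2rb*, the signalling chain of the GM-CSF, IL-3 and IL-5 receptors, which works through JAK2 and STAT5, rose from 15.8 ± 1.14 to 27.4 ± 3.40 CPM (SD, n = 3; log2 fold change 0.79 ± 0.11, SE, edgeR FDR 0.0375). *Il13ra1*, which pairs with the IL-4 receptor to signal through STAT6, rose from 89.5 ± 2.46 to 143 ± 19.3 CPM (SD, n = 3; log2 fold change 0.67 ± 0.10, SE, edgeR FDR 0.0398). Its partner *Il4ra* had 57.0 ± 7.90 and 87.0 ± 9.38 CPM (SD, n = 3) and an edgeR FDR of 0.0530, and was called by the likelihood-ratio test and DESeq2. The most abundant receptor gene in CPM was *Il6st*, which encodes gp130, with 279 ± 23.7 CPM in the wild type libraries and 345 ± 31.2 CPM in those of YAP2-5SA-∆C mice (SD, n = 3), a log2 fold change of 0.31 and an edgeR FDR of 0.1001.

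Few ligands were expressed at a level that allows a test. Of 37 ligand genes, 6 were not analysed here (*Il3*, *Il9*, *Il21*, *Il22*, *Il31* and *Ifnb1*), 24 were under the count filter and 7 were tested. Of these 7, 0 were called by edgeR's quasi-likelihood test, voom, the likelihood-ratio test or DESeq2. At an unadjusted quasi-likelihood p under 0.05, 1 of 7 was higher, near the 13.3% of all tested genes. A log2 fold change above 0 was seen in 6 of 7, against 47.6%. In 3 of 7 every YAP2-5SA-∆C library was above wild type, against 15.5%. The lowest p was that of *Il15*, a cytokine for T and NK cells, with 4.96 ± 0.51 and 6.72 ± 0.25 CPM (SD, n = 3), a log2 fold change of 0.43 and an edgeR FDR of 0.0857. The next by p-value were *Tslp*, an epithelial cytokine, at a log2 fold change of 0.81 (edgeR FDR 0.218) and *Clcf1* at 0.28 (edgeR FDR 0.222). The most abundant ligand gene was the adipocyte hormone *Lep*, with 27.7 and 28.4 CPM on average. Among the ligands under the filter, singled out after their values were seen, *Il24* had 0 counts in every wild type library and 12, 9 and 39 counts in YAP2-5SA-∆C replicates 1 to 3. *Il6* had 3, 2 and 0 counts in wild type mice and 6, 10 and 22 in transgenic littermates, and *Osm* had 7, 1 and 0 against 16, 5 and 26. These counts are too few for a statement on size.

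Among the 9 tested genes of the other STAT and SOCS list, *Stat2*, a factor of the type I interferon response, had a log2 fold change of 0.38 (edgeR FDR 0.101) and *Socs7* one of -0.20 (edgeR FDR 0.124). The median of this list was 0.04, and *Socs4*, the most abundant of them, had 50.3 and 47.0 CPM on average. Of the 13 tested regulators, *Ptpn6*, the blood cell phosphatase SHP-1 that removes phosphate from JAKs, rose from 17.7 ± 1.41 to 24.7 ± 0.55 CPM (SD, n = 3; log2 fold change 0.48 ± 0.08, SE, edgeR FDR 0.0442). The regulators' median was 0.06, with *Ptpn11*, the most abundant of them, at -0.19 (edgeR FDR 0.105) and *Stam* at -0.20 (edgeR FDR 0.106).

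Of 23 tested STAT target genes 2 rose by quasi-likelihood, against 1.44% of all tested genes, and 16 had a log2 fold change above 0, against 47.6%. Of the 23 targets voom called 2 higher (1.23% of all tested genes), the likelihood-ratio test 9 (5.52%) and DESeq2 9 (6.34%). *Mrc1*, a mannose receptor of macrophages that IL-4 induces through STAT6, rose from 158 ± 6.37 to 230 ± 16.7 CPM (SD, n = 3; log2 fold change 0.54 ± 0.07, SE, edgeR FDR 0.0341). *Timp1*, a metalloproteinase inhibitor induced by STAT3, rose from 4.78 ± 0.93 to 12.4 ± 2.88 CPM (SD, n = 3; log2 fold change 1.38 ± 0.22, SE, edgeR FDR 0.0414). *Irf1*, an interferon-induced transcription factor, had 18.3 ± 1.03 and 26.0 ± 2.51 CPM (SD, n = 3) and an edgeR FDR of 0.0505. The most abundant target, the survival gene *Mcl1*, had 215 and 201 CPM on average and a log2 fold change of -0.10 (edgeR FDR 0.308).

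**Figure D5:**
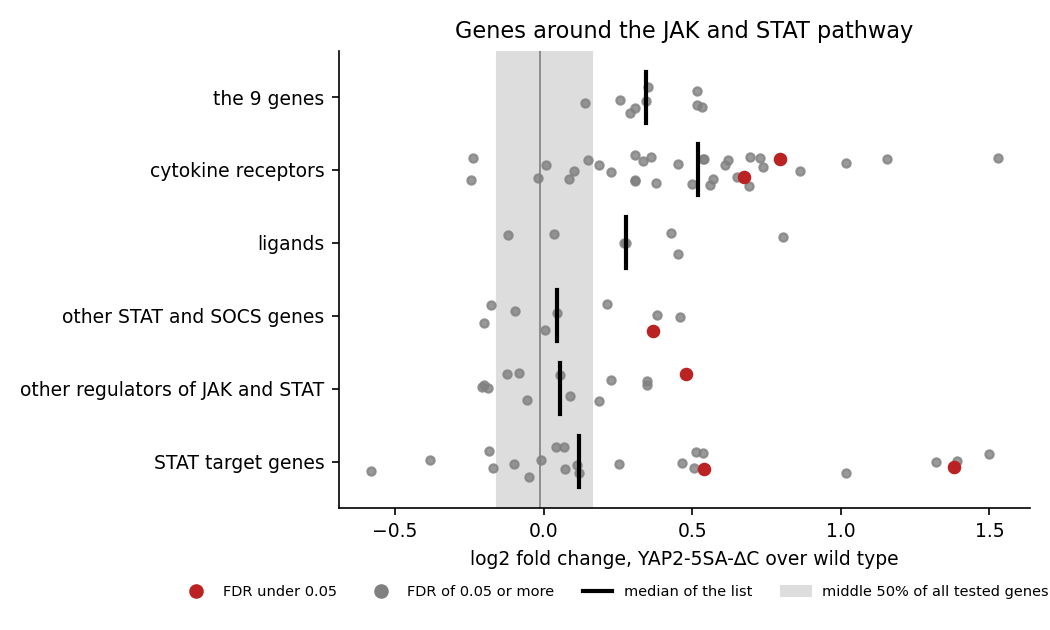
Log2 fold change of YAP2-5SA-∆C over wild type skin (horizontal axis) for the tested genes of each list, with genes under an FDR of 0.05 in the edgeR quasi-likelihood test in red, the median of each list as a black bar and the middle 50% of all tested genes in grey. The receptors have the highest median, 0.52, and the other STAT and SOCS genes the lowest, 0.04.

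Several of these genes are expressed by blood cells, and markers of blood cells moved with the genotype. For the counts that follow, the shares of all tested genes called higher were 1.44% by quasi-likelihood, 1.23% by voom, 5.52% by the likelihood-ratio test and 6.34% by DESeq2, with 13.3% higher and 13% lower at an unadjusted quasi-likelihood p under 0.05 and 47.6% above 0. All 6 leukocyte markers had a log2 fold change above 0, 5 of them rose in the quasi-likelihood test, and they summed to 105 to 115 CPM in wild type mice and to 169 to 184 CPM in transgenic littermates. The 6 macrophage markers summed to 228 to 290 and to 326 to 371 CPM, with 1 of 6 called, and the 6 mast cell markers to 155 to 174 and to 198 to 250 CPM, with 1 of 6 called and *Kit* at a log2 fold change of -0.20. The likelihood-ratio test called 2 macrophage and 5 mast cell markers higher, DESeq2 4 of each, and voom 1 and 0. The 5 counted T cell markers summed to 53.4 to 83.9 and to 79.5 to 121 CPM, of which *Thy1* alone made up 48.8 to 77.4 and 73.7 to 113 CPM. Of the 4 tested T cell markers 0 were called by quasi-likelihood, voom or DESeq2, 1 by the likelihood-ratio test and 1 at an unadjusted quasi-likelihood p under 0.05, and *Trdc* was not analysed here. The 5 counted neutrophil markers summed to 16.3 to 51.8 and to 36.5 to 84.6 CPM, with 1 of 4 tested called and *Ly6g* not analysed here. The likelihood-ratio test and DESeq2 each called 2 of the 4 higher, and voom 1. *S100a8* and *S100a9* had 18.4 and 20.6 CPM in wild type replicate 3 and 24.2 and 34.8 CPM in YAP2-5SA-∆C replicate 3. Both overlapped between the genotypes (edgeR FDR 0.462 and 0.298). The sum of the basal keratinocyte markers given above also separated by genotype, as did 4 of the 6 genes, against 15.5% of all tested genes. Quasi-likelihood called 1 of these 6 higher, voom 1, the likelihood-ratio test 3 and DESeq2 5, with 5 at an unadjusted quasi-likelihood p under 0.05. All 6 hair keratins were lower in every YAP2-5SA-∆C library, against 18.2% of all tested genes. The likelihood-ratio test called 6 of 6 lower, and the quasi-likelihood test, voom and DESeq2 0 of 6. Their unadjusted quasi-likelihood p was under 0.05 in 6 of 6. Of all 15102 tested genes, the likelihood-ratio test called 735 lower, voom 63 and DESeq2 625. The sums of the fibroblast (9449 to 12801 and 12256 to 15936 CPM), endothelial (109 to 128 and 128 to 155 CPM), adipocyte (932 to 1256 and 815 to 1310 CPM) and skeletal muscle markers (1330 to 6486 and 1275 to 3293 CPM) had 0 genes called each in the quasi-likelihood test, as had the suprabasal keratinocyte markers (4294 to 5129 and 5356 to 9595 CPM, with *Flg* not analysed here). At an unadjusted p under 0.05 in that test, 3 fibroblast, 1 endothelial and 1 suprabasal keratinocyte markers were higher and 0 adipocyte and 0 skeletal muscle markers differed. DESeq2 called 2 fibroblast markers and 1 suprabasal keratinocyte marker higher, the likelihood-ratio test 1 suprabasal keratinocyte marker, and voom none of these 5 lists. The part of any of these cell types in the differences of the JAK, STAT and SOCS genes was not tested.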

How the data were processed

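The values deposited for the 6 libraries are raw read counts per Ensembl gene. Reads had been mapped to GRCm38 by Tophat2 with Bowtie2, and those mapping uniquely were counted by HTSeq-count. Per the submitters' processing notes the versions were TopHat2 2.0.12 and Bowtie2 2.1.0, while the paper's methods give another TopHat2 version. The labels name a stranded total RNA kit and also mRNA libraries, and the strand setting of the counting and the annotation release are not given in the sources used here. A gene was tested where 3 or more samples reached 1 CPM, and libraries were scaled with TMM, and printed CPM use the scaled library sizes. edgeR's quasi-likelihood test (edgeR 4.0.16, R 4.3.3) with genotype as the only term was the main test, with Benjamini-Hochberg adjustment. The edgeR likelihood-ratio test, voom (limma 3.58.1), DESeq2 1.42.0, other scalings and filters, a replicate block and fits without each library were alternatives. The fits were tested on simulated counts.

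Gene positions and exon lengths are from GENCODE M21 and promoter windows from RefSeq. The members and lists were chosen with earlier results of these data known. All 9 members are named, with the called genes of each pathway list (or the lowest p-values up to 3), its most abundant gene, and the 2 genes most correlated with each member. One gene that this rule names is not reported here. No 2 libraries of the same genotype agreed within sampling noise, pairs across genotypes were not compared, and no sample was left out.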

Additional observations from a re-analysis of the deposited data

How the results depend on the processing

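The direction of the log2 fold change of all 9 genes was the same in every alternative. Of the 9 genes, 0 were called higher with all libraries and TMM, 2 with upper-quartile factors (*Jak2* and *Stat3*), 1 without the count filter (*Stat3*), 3 by the likelihood-ratio test and 6 by DESeq2. Leaving out each library in turn gave 0 to 2 called genes, the 2 (*Jak2* and *Stat3*) without YAP2-5SA-∆C replicate 2. Of the 86 tested pathway genes, 6 were called higher, against 11 without the count filter, 22 by the likelihood-ratio test and 27 by DESeq2, and 0 to 14 over the fits with 1 library fewer. Over all genes the calls went from 288 to 357 with RLE, 416 with upper-quartile factors, 497 without the filter, 1568 by the likelihood-ratio test, 1583 by DESeq2 and 249 by voom, to 816 once YAP2-5SA-∆C replicate 2 was dropped, to 142 and 86 on dropping the first wild type or first YAP2-5SA-∆C library, and to 0 in each of 3 fits (dropping wild type replicate 2, or 3, or the third YAP2-5SA-∆C library). The cause was not tested. Deviations from the group means of same-numbered libraries had correlations of -0.33, -0.23 and -0.05. With 3 libraries per group such deviations depend on each other, so these values cannot show whether the numbers pair the mice. The fit with the replicate block called 0 genes in all, 0 of the 9 and 0 of the pathway genes. It had 2949 genes at an unadjusted p under 0.05. The 24 ligand genes under the count filter were tested by quasi-likelihood only in the fit without it, where 0 were called and 5 had an unadjusted p under 0.05, against 17.5% of all genes in that fit.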
